A study of Mus musculus with 24 samples.

Results

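Lung tumours driven by the L858R form of EGFR were set against lung tumours driven by the T790M form, each after subtraction of its own normal lung. The contrast is (L858R tumours minus mixed-strain normals) minus (T790M tumours minus FVB normals). Its members were chosen by array title and number 19 of the 24 arrays in the series: 4 L858R tumours, 5 mixed-strain normal lungs, 5 T790M tumours and 5 FVB normal lungs. The other 5 arrays are tumours labelled L858R+T790M, used here for the shared estimate of spread and as side values.

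EGFR is the receptor tyrosine kinase for epidermal growth factor and related ligands, and it signals through ERK and PI3-kinase in epithelial cells. L858R is a common activating substitution in human lung adenocarcinoma that makes tumours sensitive to EGFR inhibitors. T790M is best known as the substitution in the kinase's gatekeeper residue that accompanies resistance to the first inhibitors, and it can also occur as the only EGFR change. The comparison addresses how tumours made by each form alone differ in the genes they express.

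The L858R tumours came from bitransgenic C/L858R mice whose strain label is FVB mixed. The T790M tumours came from C/T790M mice labelled FVB, an inbred mouse strain. All tumours were visible nodules dissected by hand after 3 to 6 months of a diet with doxycycline, the drug that switches such transgenes on. The normal lungs came from littermates on doxycycline with no transgene or only 1 of the pair. Their strain labels are FVB mixed for the lungs set against L858R tumours and FVB for those set against T790M tumours. The labels give the activator line only as the letter C, and in published mice of this kind it is a reverse tetracycline transactivator under the promoter of the club cell secretory protein. They do not say that replicates were separate animals, so the spread behind each p-value is that among the arrays and may be technical. Age and sex are not given in the labels used here.

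Levels are log2 intensities from the Affymetrix whole-genome mouse array. A difference of 1 on this scale is a 2-fold change in signal. An effect here is a tumour group's mean minus the mean of its normals, and the difference of effects is the L858R effect minus the T790M effect. A gene was called at a limma adjusted p under 0.05 after Benjamini-Hochberg adjustment over 18193 genes. Errors are standard errors from the fit (4 L858R tumours, 5 arrays in each of the other groups).

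Array medians ran from 7.21 to 7.34. Within groups, correlations over genes ran from 0.946 to 0.996, and the median gene's SD was 0.183 in L858R tumours and 0.186 in T790M tumours against 0.109 and 0.0991 in their normals. The markers of alveolar type 2 cells, which make surfactant, matched the lung label: their mean level ran from 12.97 to 13.31 in L858R tumours and from 12.89 to 13.22 in T790M tumours, against 12.37 to 12.54 over the 10 normal lungs. Mean endothelial marker levels were lower in every tumour (8.40 to 10.87) than in every normal lung (11.57 to 12.11). These are bulk samples, in which fewer cells of a type and less RNA per cell cannot be told apart.

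Each tumour type was first set against its own normals. L858R tumours differed from mixed-strain normals in 7523 genes (41.4% of all tested), and T790M tumours differed from FVB normals in 7238 (39.8%). The difference of effects, which is less precise than either effect (median standard error 0.15 against 0.11 and 0.10), passed the test for 76 genes (0.418%). Of these, 37 had a higher L858R effect (0.203%) and 39 a lower one (0.214%), and 34 reached 2-fold. At an unadjusted p under 0.05 there were 2669 genes. The median difference of effects over all genes was 0.02.

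Among the 37 higher genes, 27 rose in L858R tumours with no call in T790M tumours. Another 5 rose in L858R and fell in T790M tumours, 3 rose in both, and 2 fell in T790M tumours alone. Among the 39 lower genes, 13 fell in L858R tumours alone, 9 fell in both, 9 rose in T790M tumours alone, 6 fell in L858R and rose in T790M tumours, and 2 rose in both. When each tumour was set against the mean of its normals, the 4 L858R and 5 T790M values did not overlap for any of the 76 genes, which the test favours. Over all genes tested, such values did not overlap for 9.65%, with L858R above T790M in 5.41% and below it in 4.23%.

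**Figure D1:**
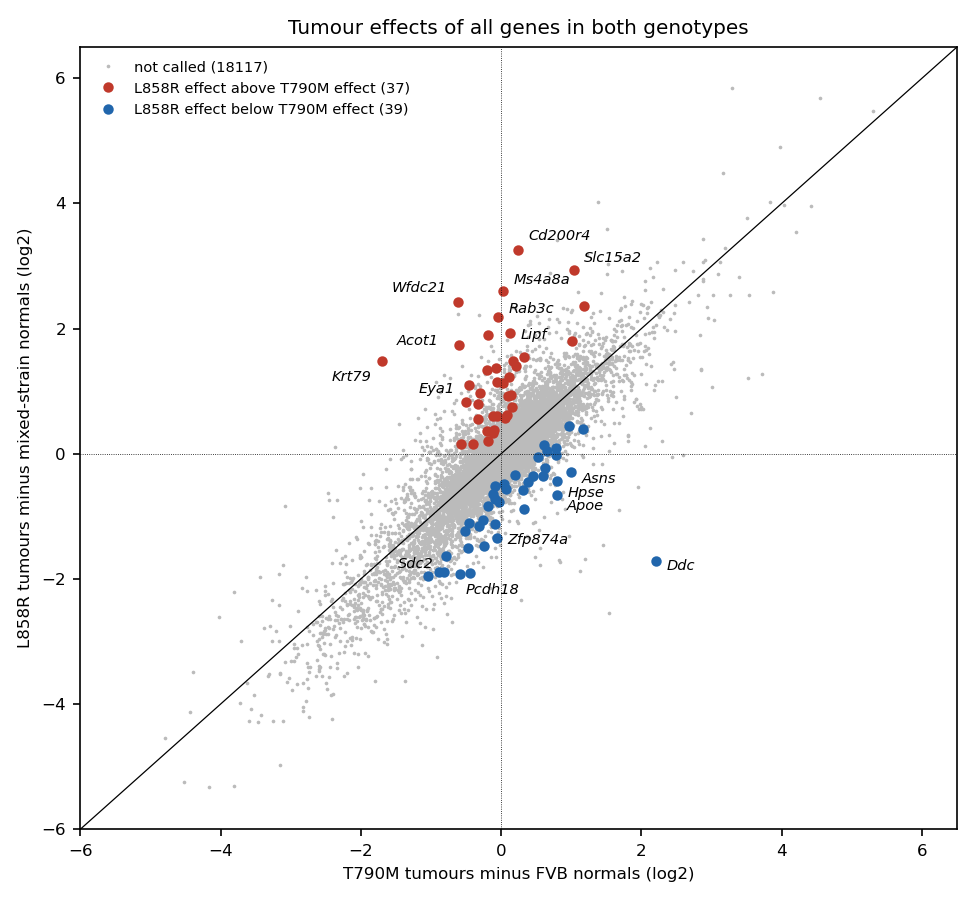
Each point is a gene, with its T790M effect (log2, x axis) against its L858R effect (log2, y axis). The 76 called genes lie off the diagonal of equal effects, 37 above it in red and 39 below it in blue, while most of the 18193 genes follow it.

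The largest higher difference was in Krt79, a type II keratin that alveolar macrophages express. Its level was 11.53, 11.0, 10.55 and 11.51 in the L858R tumours and 9.45, 9.86, 9.37, 10.06 and 9.56 in their normals. In T790M tumours it was 8.24, 8.97, 7.68, 7.18 and 8.21, against 10.06, 9.74, 9.71, 9.89 and 9.41 in theirs. Every L858R tumour was thus above all normal lungs and every T790M tumour below them. Krt79 rose by 1.49 ± 0.41 in L858R tumours (2.80-fold) and fell by 1.71 ± 0.39 in T790M tumours. The difference of effects was 3.19 ± 0.56 (limma adjusted p = 0.0144). Its direct difference between the tumour groups was 3.09, so the normals contributed little.

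Krt79 belongs to a list of alveolar macrophage genes, the resident phagocytes that clear surfactant from the air spaces. All 13 measured members had a difference of effects above 0, against 52.9% of all genes, with a median of 1.07. The median L858R effect was 1.18 and the median T790M effect 0.01. Only Krt79 was called (1 of 13, against 0.203% of all genes in that direction), and 9 members had an unadjusted p under 0.05. Marco, a scavenger receptor, had a difference of 2.63 ± 0.76 (limma adjusted p = 0.117). Siglecf, a sialic acid-binding receptor that marks these cells in mice, stood at 2.13 ± 0.56 (adjusted p = 0.0818). Atp6v0d2, a proton pump subunit, had 1.56 ± 0.37 (adjusted p = 0.0654). The mannose receptor Mrc1 had 1.07 ± 0.37 (adjusted p = 0.179).

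The mean level of the 13 genes ran from 10.16 to 10.93 in L858R tumours and from 9.24 to 9.48 in their normals. It ran from 9.04 to 9.69 in T790M tumours and from 9.44 to 9.63 in FVB normals. L858R tumours did not overlap with any other of these 3 groups, whereas T790M tumours overlapped with their normals. The L858R+T790M tumours, outside the contrast, ran from 8.67 to 10.26 with a median of 10.01, and overlapped with L858R tumours. Leaving out any single array kept the list's median between 0.95 and 1.26. When the spread was taken from the 19 arrays of the contrast alone, Marco, Siglecf, Mrc1 and Atp6v0d2 were also called, with the same differences. Without replicate 2 of the L858R+T790M tumours, Siglecf and Atp6v0d2 were called.

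**Figure D2:**
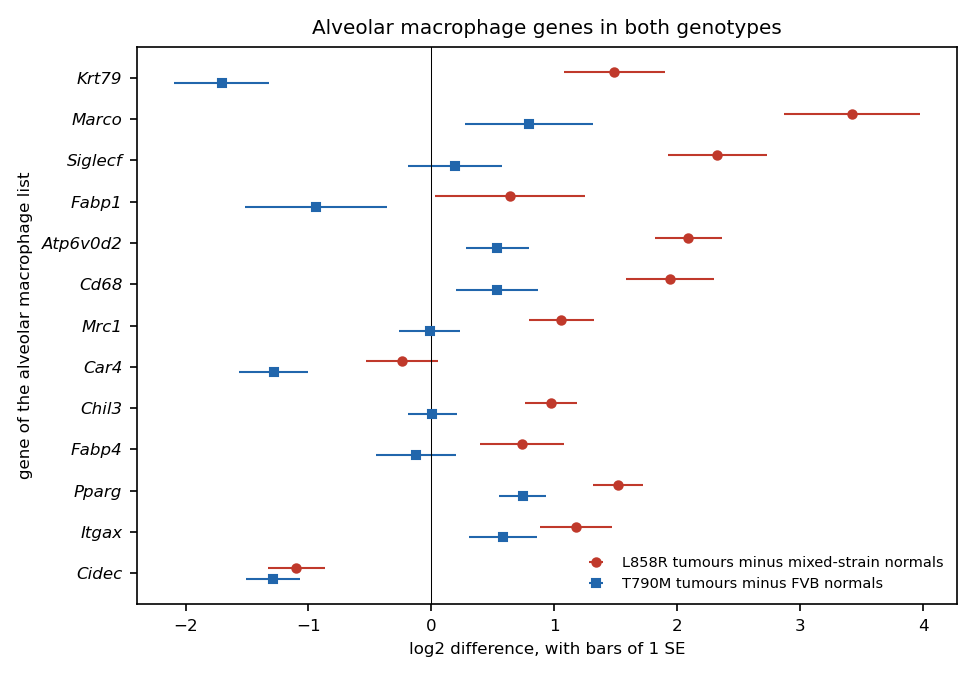
Effects (log2, x axis) of the 13 measured alveolar macrophage genes, with bars of 1 standard error; red circles are L858R tumours minus mixed-strain normals and blue squares are T790M tumours minus FVB normals. Each red circle lies to the right of its blue square, by 3.19 for Krt79 and by 0.19 for Cidec.

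Other myeloid genes were among the called ones. Trem1, a receptor that amplifies inflammatory signals in myeloid cells, rose by 0.83 in L858R tumours and fell by 0.50 in T790M tumours, with a difference of 1.34 ± 0.23 (limma adjusted p = 0.0141). Its normals differed as well: Trem1 was lower by 0.67 in the mixed-strain lungs (adjusted p = 0.0445). Ltc4s, the enzyme that conjugates leukotriene with glutathione, rose by 1.34 in L858R tumours, and its difference of 1.53 ± 0.34 was only just called (adjusted p = 0.0443) and lost the call in 16 of the omissions of single arrays. Klra2, a lectin-like receptor of the Ly49 family, had a difference of 1.26 ± 0.25 (adjusted p = 0.0221), lost in 2 omissions. Trem1 and Klra2 fall outside the naming rule and, like all the called genes given below that are neither among the 12 highest nor the 12 lowest nor in a list, were chosen after their values were seen. Among 11 markers of activated and lipid-laden macrophages, none was called higher and Apoe was called lower. Of 9 neutrophil genes, all lay above 0 with a median of 0.74, none was called by limma and 2 had an unadjusted p under 0.05. Their mean levels overlapped between the tumour groups (7.24 to 8.65 in L858R and 6.96 to 8.17 in T790M tumours).

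Cd200r4 and Ms4a8a followed the strain label as well as the tumour. Cd200r4 encodes a CD200 receptor family member of myeloid cells. It stood at 8.96, 9.95, 8.84 and 9.38 in L858R tumours and at 7.26, 7.42, 4.57, 6.41 and 4.47 in mixed-strain normals. Levels were 4.82, 4.88, 4.63, 4.90 and 5.10 in T790M tumours and 4.59, 4.6, 4.66, 4.55 and 4.70 in FVB normals. Over the 15 arrays labelled FVB, including the L858R+T790M tumours, it never left the range from 4.41 to 5.10. That range is below every array's lower quartile, and whether such levels were above background was not tested. So 3 of the 5 mixed-strain normals and all 4 L858R tumours were above every FVB-labelled array. Ms4a8a, a membrane-spanning protein, had the same arrays high: 9.82, 9.84, 8.10 and 8.87 in L858R tumours, and 7.05, 7.46 and 7.21 in mixed-strain normals 1, 2 and 4. The other two mixed-strain normals had 5.56 and 5.48, within the FVB-labelled range of 5.40 to 6.06.

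The difference of effects was 3.01 ± 0.60 for Cd200r4 (limma adjusted p = 0.0221) and 2.58 ± 0.49 for Ms4a8a (adjusted p = 0.0183). The L858R effects, 3.26 and 2.61, rest on a normal group that itself held high and low lungs. The Cd200r4 call was lost without L858R tumour 2 (difference 2.62 to 3.36 over all such omissions) and without L858R tumour 4. For these genes, as for every gene of the contrast, strain label and tumour genotype cannot be told apart by subtraction of the normals alone. No FVB-labelled L858R tumour is among the samples. The subtraction removes only a strain difference that is the same in tumours and normals.

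Some called higher genes act on fatty acids. Acot1 encodes a cytosolic thioesterase that splits fatty acyl-CoA. It stood at 11.37, 10.40, 9.90 and 11.08 in L858R tumours against 8.85, 9.48, 9.05, 8.65 and 8.73 in their normals. T790M tumours had 9.30, 10.42, 8.71, 9.44 and 8.97, and FVB normals 10.20, 10.36, 9.83, 9.54 and 9.92. L858R tumours were all above their normals, while T790M tumours overlapped with theirs and with the L858R tumours. The normal sets did not overlap. Acot1 rose by 1.74 ± 0.37 in L858R tumours, and the difference of effects was 2.34 ± 0.51 (limma adjusted p = 0.0398). That call was lost under the omission of any 1 of 15 arrays, with differences between 2.11 and 2.60. Of the difference, 1.32 lay between the tumours and 1.02 between the normals. The 1.32 was called in the direct difference between the tumours. With all normals as 1 group the normals cancel and the value is the same 1.32, not called in that fit.

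Plin2, which coats lipid droplets, was at 13.25, 12.96, 12.22 and 12.84 in L858R tumours and at 11.58, 11.76, 11.59, 11.74 and 11.74 in their normals. T790M tumours (12.19, 11.77, 12.11, 12.09 and 12.50) lay around their own normals (12.19, 12.21, 11.97, 12.10 and 12.03). The rise in L858R tumours was 1.14 ± 0.17 and the difference of effects 1.10 ± 0.23 (limma adjusted p = 0.0344), a call that 13 of the 24 single-array omissions removed. Slc25a20, which carries acylcarnitines into mitochondria, had a difference of 0.79 ± 0.16 (adjusted p = 0.0221, lost in 3 omissions), and the uncoupling protein gene Ucp3 had 0.90 ± 0.16 (adjusted p = 0.0158). A list of fatty acid oxidation and lipid droplet genes, drawn up after these calls were seen, held 4 called genes of 21, all higher, against 0.203% of all genes, and its median was 0.37. Because these calls prompted the list, the count is no independent support. In the list of fatty acid and cholesterol synthesis, 0 of 16 genes were called by limma and 1 was higher at an unadjusted p under 0.05, with 8 above and 8 below 0 and a median of -0.01. Its mean level ran from 10.29 to 10.80 in L858R tumours and from 10.16 to 10.49 in T790M tumours. The mean level of the oxidation and lipid droplet list ran from 9.63 to 10.07 in L858R tumours and from 9.29 to 9.84 in T790M tumours. Lipf, a lipase of the stomach, had the smallest adjusted p of the higher genes: 7.67, 6.83, 6.44 and 7.03 in L858R tumours against 4.69 to 5.38 in the other 3 groups. The levels in those 3 groups were below every array's lower quartile, and whether they were above background was not tested. L858R tumours were separate from every other array, and the difference was 1.80 ± 0.24 (adjusted p = 0.00207).

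Other higher genes had varied roles. Rab3c, a small GTPase of secretory vesicles, was at 9.01, 8.67, 8.21 and 8.85 in L858R tumours and at 6.15 to 7.36 in the other 15 arrays of the contrast. Its difference of effects was 2.23 ± 0.36 (limma adjusted p = 0.0123), and 3 of its 4 other probe sets were called too. Rab27b, a vesicle GTPase of the same superfamily, had 1.44 ± 0.27 (adjusted p = 0.018). Slc15a2, the proton-coupled peptide transporter of alveolar type 2 cells, behaved differently. It stood at 12.17, 12.24, 11.61 and 12.38 in L858R tumours and at 10.83, 11.86, 11.44, 12.09 and 11.06 in T790M tumours, which overlap. The normals did not overlap, with 8.78 to 9.68 in mixed-strain and 10.23 to 10.67 in FVB lungs. The difference of 1.90 ± 0.35 (adjusted p = 0.018) therefore consisted of 0.64 between the tumours and 1.25 between the normals, and the other 2 probe sets of Slc15a2 (0.85 and 1.00) were not called.

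Vstm2a, which encodes an immunoglobulin-domain protein, had 8.28, 8.26, 7.32 and 7.04 in L858R tumours and 5.26 to 6.2 in the other 3 groups of the contrast. The difference was 2.09 ± 0.38 (limma adjusted p = 0.0159). Eya1, a phosphatase and transcriptional coactivator of organ development, rose by 1.10 in L858R tumours, and its difference was 1.57 ± 0.30 (adjusted p = 0.018), not called with the median over its probe sets. Wfdc21, a small secreted protein with a whey acidic protein domain, was at 10.74, 10.33, 9.22 and 10.10 in L858R tumours against 7.31 to 8.38 in their normals. T790M tumours ran from 7.09 to 8.46 and FVB normals from 8.01 to 9.09. Its difference of 3.04 ± 0.67 was among the largest, but the adjusted p was 0.0428 and the call was lost in 16 of the single-array omissions. Ctsh, a lysosomal protease that processes surfactant protein, rose in both tumour types, by 1.81 in L858R and 1.01 in T790M. Of its difference of 0.80 ± 0.14 (adjusted p = 0.0141), 0.55 lay between the normals and 0.25 between the tumours.

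Cdkn1a, the cyclin-dependent kinase inhibitor induced by p53, was the called member of the list of CDK inhibitors and p53 targets (1 of 14, against 0.203% of all genes in that direction). Levels were 11.99, 11.49, 11.26 and 12.03 in L858R tumours and 10.01, 10.48, 10.19, 10.18 and 9.89 in mixed-strain normals. In T790M tumours they were 11.35, 11.27, 10.82, 11.36 and 11.05, and in FVB normals 11.08, 10.98, 10.41, 10.95 and 10.81. The tumour groups overlapped at 11.26 to 11.36, and only 1 mixed-strain normal reached the FVB normals' range. Cdkn1a rose by 1.54 ± 0.17 in L858R tumours and by 0.32 ± 0.16 in T790M tumours, where it was not called. The difference of effects was 1.22 ± 0.23 (limma adjusted p = 0.018) and held without any single array. Of it, 0.52 lay between the tumours (adjusted p = 0.0632) and 0.70 between the normals (adjusted p = 0.0358). A second probe set gave 1.10 and was called as well.

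**Figure D3:**
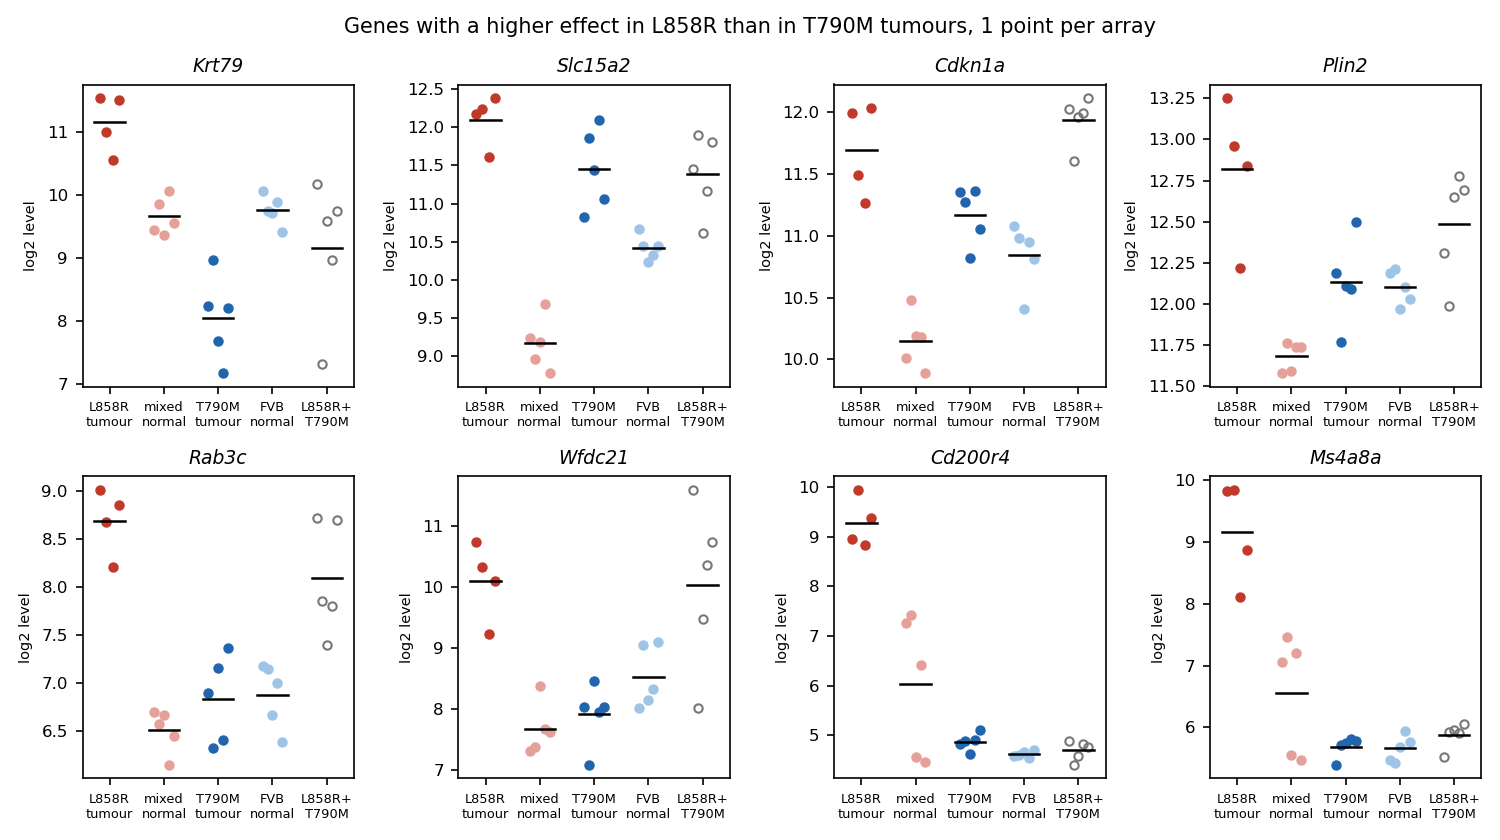
Log2 level (y axis) of 8 called genes with a higher L858R effect, 1 point per array in each of the 5 groups (x axis; mixed normal is the mixed-strain group), with group means as bars; open points are L858R+T790M tumours, outside the contrast. Krt79 is high in L858R and low in T790M tumours, whereas Slc15a2 and Cdkn1a differ mainly in the normals and Cd200r4 and Ms4a8a are near their lowest level in all 15 FVB-labelled arrays.

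The largest difference of any called gene was the lower effect of Ddc, the decarboxylase that makes dopamine and serotonin and that neuroendocrine cells express. It was at 5.67, 6.23, 6.62 and 5.81 in L858R tumours against 6.97, 7.33, 7.96, 8.19 and 8.56 in their normals. T790M tumours had 8.05, 10.15, 8.32, 11.35 and 8.49, and FVB normals 6.75, 6.94, 7.75, 6.68 and 7.22. Every L858R tumour was below, and every T790M tumour above, its own normals. Ddc fell by 1.72 ± 0.55 in L858R tumours and rose by 2.20 ± 0.52 in T790M tumours. The difference was -3.92 ± 0.76 (limma adjusted p = 0.0187) and stayed between -4.23 and -3.40 without any single array, called each time. T790M tumours 2 and 4 held the highest levels. A second, dimmer probe set for Ddc gave 0.10 and was not called.

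Apoe, the lipid carrier that macrophages and other cells secrete, moved in opposite directions. L858R tumours had 12.01, 11.19, 12.14 and 11.88 against 12.44, 12.35, 12.62, 12.49 and 12.44 in their normals. T790M tumours had 12.33, 13.47, 12.69, 12.85 and 12.53 against 11.99, 12.06, 11.94, 11.82 and 12.10. Neither tumour group overlapped with its normals. The fall of 0.66 ± 0.21 and the rise of 0.79 ± 0.20 gave a difference of -1.46 ± 0.29 (limma adjusted p = 0.02). Apoe is in the list of genes of activated and lipid-laden macrophages, whose median lay in the other direction, at 0.56.

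Asns, which makes asparagine from aspartate and is a textbook target of the stress transcription factor ATF4, was called higher in T790M tumours and not in L858R tumours. L858R tumours had 8.39, 9.13, 9.29 and 8.86 and their normals 9.24, 9.58, 9.04, 9.01 and 9.20, which overlap. T790M tumours had 10.29, 9.38, 9.82, 10.27 and 10.12, all above their normals at 9.15, 9.08, 9.04, 8.82 and 8.81. The T790M effect was 1.00 ± 0.16 (1.99-fold), the L858R effect -0.30 ± 0.17, and the difference -1.29 ± 0.24 (limma adjusted p = 0.018). The other probe set for Asns gave -1.34 and was called. L858R+T790M tumours, at 8.98 to 9.18, lay in the range of the normals.

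ATF4 acts with C/EBP family partners on a composite element, and the letters TGATGNAA (N is any base) were searched on both strands of RefSeq promoters. A promoter here is the stretch from 250 bases before to 50 bases after a gene's start on GRCm38.p6. The 250 bases before the start of Asns, chr6:7693210-7693459 on the minus strand, hold 1 match, in capitals, shown because Asns was the called gene of the ATF4 list:
Asns: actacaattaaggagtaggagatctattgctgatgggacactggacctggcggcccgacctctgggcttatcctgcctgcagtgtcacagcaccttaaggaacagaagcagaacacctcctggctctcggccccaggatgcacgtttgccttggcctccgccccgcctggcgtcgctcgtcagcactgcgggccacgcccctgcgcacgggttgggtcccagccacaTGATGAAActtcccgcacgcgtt
The other members of the list with a match are Chac1, Slc7a11 and Trib3, given as 30 bases around it to show how the same letters lie on either strand:
Chac1: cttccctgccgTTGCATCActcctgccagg
Slc7a11: tctcatgtggcTGATGCAAacctggagaat
Trib3: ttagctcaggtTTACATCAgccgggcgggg
They lie at chr2:119351038-119351067 (plus strand), chr3:50443661-50443690 (minus) and chr2:152344028-152344057 (minus). Capitals mark the match shown, which reads in reverse in Chac1 and Trib3. Slc7a11 holds a second match, in reverse, not shown here.

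A match was found in 4 of the 15 list members with a RefSeq promoter, against 4.51% of 27025 genes. Of the called genes with a promoter, 2 of 32 lower ones (Apoe and Asns) and 0 of 27 higher ones held it. The AP-1 letters TGANTCA, at 8.97% of genes, were in Ddc and Mfsd10 among the lower and in Capn6, Klra2 and Ms4a8a among the higher genes. The CRE letters TGACGTCA (2.03% of genes) were in Zfp874a alone, and the E2F letters TTTNGCGC (1.57%) in none of the 59 called genes with a promoter. The letters of the other motifs do not allow a match to overlap TGATGNAA, so the absence of overlap in any window is no finding. Such matches are descriptions of sequence.

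Of the 18 measured ATF4 list genes, Asns alone was called (1 lower, against 0.214% of all genes, and 0 higher), and 12 lay below 0 with a median of -0.27. At an unadjusted p under 0.05 there were 7 lower genes and 1 higher. Aldh1l2, a mitochondrial folate enzyme, had a difference of -1.0 ± 0.23 (limma adjusted p = 0.055), with effects of 0.47 in L858R and 1.47 in T790M tumours. Trib3, a pseudokinase induced by amino acid stress, had -0.83 ± 0.33, and Chac1, which degrades glutathione, -0.64 ± 0.24 (adjusted p = 0.247 and 0.22). Slc7a11, the cystine transporter, had -0.17 ± 0.26 despite its match. Psat1 of serine synthesis rose in both tumour types, by 2.15 and 2.41. The list's mean level did not overlap between tumour groups, at 8.64 to 8.90 in L858R and 9.06 to 9.28 in T790M tumours, while the normal sets overlapped. Ddit4, an inhibitor of mTOR signalling, had the opposite sign (0.98 ± 0.25, adjusted p = 0.076).

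Some called lower genes act in the endoplasmic reticulum. Derl3, which helps export misfolded proteins for degradation, was at 8.97, 9.10, 8.75, 9.01 and 9.13 in T790M tumours against 8.40, 8.48, 8.17, 8.33 and 8.48 in FVB normals. In L858R tumours it was at 8.18, 8.24, 8.51 and 8.32 against 8.54, 8.35, 8.55, 8.59 and 8.66. All T790M tumours were above both the L858R tumours and all normals. The difference was -0.85 ± 0.15 (limma adjusted p = 0.0141). Sec24d of the vesicle coat had -0.80 ± 0.17 (adjusted p = 0.0347). Srp68 of the signal recognition particle had -0.58 ± 0.12 (adjusted p = 0.0261), and the zinc transporter Slc39a7 had -0.61 ± 0.11 (adjusted p = 0.0141). These 3 rose in T790M tumours, by 0.78, 0.53 and 0.65, with L858R effects of -0.02, -0.06 and 0.04. In a list of 28 genes for protein entry and folding, drawn up after these calls and so no independent support, 4 were called lower (against 0.214% of all genes) and none higher, while the median was -0.10. The calls of Sec24d and Srp68 were lost in 11 and 4 of the single-array omissions, and also when each array was centred, which left 2 of the 28 called.

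Hpse was the called member of the list of glypicans, syndecans and proteases (1 of 17, against 0.214% of all genes in that direction), of which 8 lay above 0 and 9 below, with a median of -0.06. It encodes the heparanase that cuts heparan sulphate chains, and stood at 7.38, 7.43, 8.02 and 8.01 in L858R tumours and 7.88 to 8.42 in their normals. T790M tumours had 8.94, 9.03, 8.83, 9.44 and 8.51, against 7.79 to 8.57 in FVB normals. L858R and T790M tumours did not overlap, though each overlapped with its normals. The difference was -1.22 ± 0.25 (limma adjusted p = 0.0257), with effects of -0.43 and 0.79, and was not called without L858R tumour 2, mixed-strain normal 1, FVB normal 3 or FVB normal 4 (range -1.33 to -1.10), nor after quantile normalization. Sdc2, a syndecan that carries such chains, fell in both tumour types. It was at 8.29, 7.45, 8.0 and 7.73 in L858R and 8.73, 8.80, 8.72, 8.83 and 8.59 in T790M tumours, below 9.72 to 9.91 and 8.96 to 9.60 in the normals. No group overlapped with another. The falls were 1.92 and 0.59, the difference was -1.34 ± 0.21 (adjusted p = 0.0123), and 2 of the other 3 probe sets were called too. Ext2, an enzyme that builds the chains, had -0.62 (adjusted p = 0.0141), of which 0.44 lay between the normals (adjusted p = 0.00647).

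Pcdh18, a protocadherin, was at 7.54, 7.27, 7.07 and 7.07 in L858R tumours, 8.94 to 9.50 in their normals, 8.28 to 8.73 in FVB normals and 7.53 to 8.90 in T790M tumours. The L858R tumours were far from their normals, whereas T790M tumours overlapped with theirs. The difference of -1.46 ± 0.29 (limma adjusted p = 0.0209) was not called without L858R tumour 4 (range -1.58 to -1.24). Dact1, a modulator of WNT signalling, had -1.23 ± 0.25 (adjusted p = 0.0273), and Evc, a hedgehog pathway protein of cilia, -1.08 ± 0.23 (adjusted p = 0.0361). Those calls were lost in 8 and 13 of the omissions. Sorbs2, a cytoskeletal adaptor, had -1.20 ± 0.26 (adjusted p = 0.0396), lost in 10 omissions, and its 3 other probe sets gave -0.26 to 0.21 with no call. Spats2l (-1.03 ± 0.19, adjusted p = 0.0158) and Fam114a1 (-1.03 ± 0.19, adjusted p = 0.018) kept their calls whichever single array was left out.

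Markers of mesenchyme lay beside these genes. Of 15 fibroblast and matrix genes, 14 were below 0, with a median of -0.49, none called by limma and 1 at an unadjusted p under 0.05, a higher one. Their mean level ran from 10.90 to 10.98 in mixed-strain and from 10.13 to 10.65 in FVB normals, which do not overlap. It was 8.76 to 9.98 in L858R and 8.54 to 9.96 in T790M tumours, which do. Of 12 smooth muscle and pericyte genes, 11 were below 0, with a median of -0.42, none called and 4 lower at an unadjusted p under 0.05. Cardiac muscle genes, which the pulmonary veins of mice express, had a median of -0.69 over 10 genes with none called or at an unadjusted p under 0.05, and their mean level ran from 9.55 to 11.14 in mixed-strain and from 9.83 to 10.70 in FVB normals. The part of these cells in the lower differences was not tested.

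**Figure D4:**
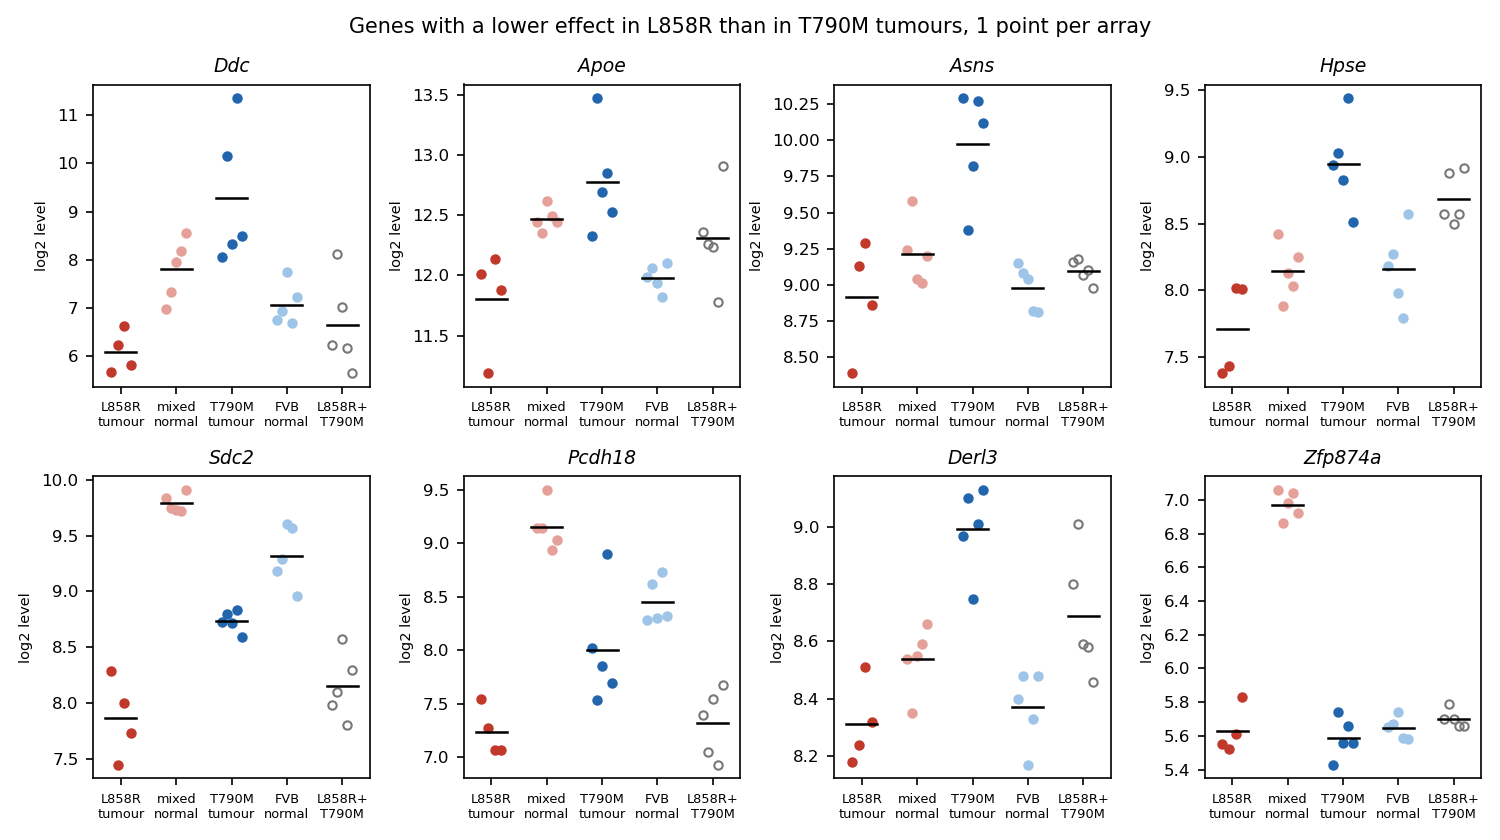
Log2 level (y axis) of 8 called genes with a lower L858R effect, 1 point per array in the 5 groups (x axis; mixed normal is the mixed-strain group), with group means as bars; open points are L858R+T790M tumours, outside the contrast. Ddc and Apoe fall in L858R and rise in T790M tumours, Asns, Hpse and Derl3 are highest in T790M tumours, and Zfp874a is high in the mixed-strain normals alone.

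Zfp874a, a zinc finger gene, had the smallest adjusted p of all. It was at 7.06, 6.86, 6.98, 7.04 and 6.92 in the mixed-strain normals. L858R tumours, which carry the same strain label, had 5.55, 5.52, 5.61 and 5.83. T790M tumours ran from 5.43 to 5.74 and FVB normals from 5.58 to 5.74. The mixed-strain normals were thus apart from all other arrays. The difference of effects, -1.29 ± 0.09 (limma adjusted p = 5.55e-08), lay wholly between the normals (1.33, adjusted p = 1.52e-11), with 0.04 between the tumours (adjusted p = 0.785).

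More generally, the contrast is the difference between tumours less the difference between normals. The mixed-strain and FVB normals differed in 189 genes (1.04% of those tested), and L858R and T790M tumours differed directly in 1083 (5.95%). Of the 37 higher genes, 32 were also called directly between the tumours (3.63% of all genes in that direction), 5 between the normals, and 6 took the larger share of their difference from the normals. Of the 39 lower genes these counts were 27 (against 2.32%), 9 and 12. Both differences are parts of the contrast and come from the same arrays and fit. The overlap of calls is therefore favoured and is no independent support. The difference between the normals enlarged the contrast in 31 of the 37 and 38 of the 39, a direction that the subtraction favours. With all normals as 1 group, the normals cancel. The contrast is then the direct difference between the tumours, and only the estimated spread differs. There the calls of Acot1, Slc15a2, Trem1, Cdkn1a, Ctsh, Pcdh18, Sorbs2, Evc, Fam114a1, Ext2 and Zfp874a were lost, and Zfp874a changed sign. Of these genes, Acot1, Trem1, Pcdh18, Evc and Fam114a1 were called in the direct difference of the main fit. Of the 189 genes that differed between the normals, 136 had the same sign between the tumours, which share no array with them, and 26 were called there (13.8%), 24 with the same sign and 2 with the opposite one. In the direction seen in the normals, their median difference was 0.46 between normals and 0.13 between tumours. These genes were picked for their difference between the normals, so the larger value there is no finding, and 14 of them are among the 76. The L858R+T790M mean lay between the means of L858R and T790M tumours for 31 of the 37 higher and 28 of the 39 lower genes. It was nearer to the T790M mean for 23 of the 37 and 16 of the 39. Selection of the 76 genes for a difference between the tumour effects favours a mean that lies in between. No share over all genes is given for comparison, so the counts do not show that L858R+T790M tumours were intermediate.

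**Figure D5:**
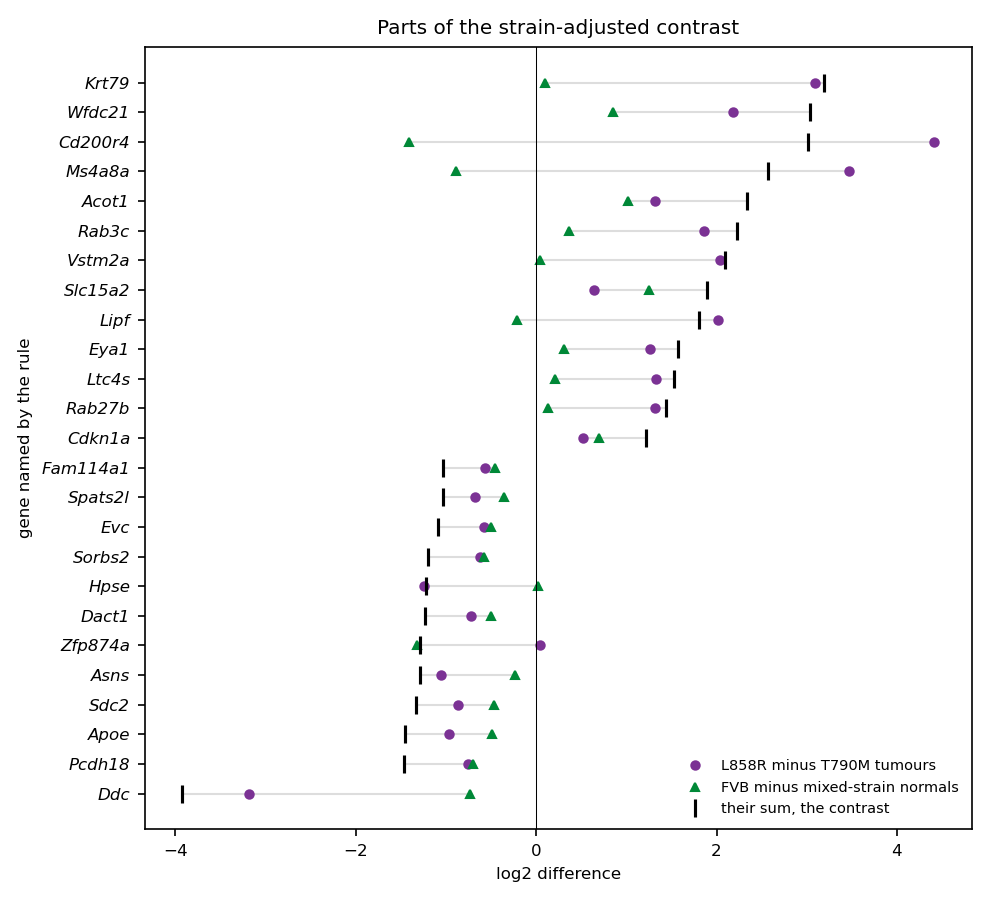
For the 25 genes named by the rule (y axis), the difference between L858R and T790M tumours (purple circle), FVB minus mixed-strain normals (green triangle) and their sum, the difference of effects (black bar), in log2 units (x axis). Krt79, Vstm2a and Hpse rest almost wholly on the tumours, Zfp874a on the normals, and the difference between the normals reduces the contrast in Cd200r4 and Ms4a8a.

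The receptors and ligands of the EGFR family did not pass the test in this contrast: limma called 0 of 10 measured members, and at an unadjusted p under 0.05 there were 3 higher and 1 lower. Ereg, which encodes the ligand epiregulin, was at 10.59, 10.69, 10.80 and 10.52 in L858R and 8.29, 10.19, 9.63, 5.74 and 8.91 in T790M tumours. Normal lungs had 4.35 to 5.05 (mixed-strain) and 4.95 to 6.09 (FVB), and 9 of the 10 were below every array's lower quartile, so a fold over them is not given. Whether they were above background was not tested. T790M tumour 4 lay within the FVB normals' range. Ereg rose in both tumour types, by 5.85 ± 0.55 and 3.30 ± 0.52 on the measured scale. Its difference was 2.55 ± 0.76 with an adjusted p of 0.124, and among the single-array omissions it was called without T790M tumour 2 alone (2.96). Epgn, another ligand, had 0.72 ± 0.21 (adjusted p = 0.114) and was called when the spread came from the 19 arrays alone. The brightest of 7 probe sets for mouse Egfr had an L858R effect of 0.06 and a T790M effect of -0.29 ± 0.06, a difference of 0.34 ± 0.09 (adjusted p = 0.0776). The probe sets for Egfr disagree: one had effects of -1.87 in L858R and -1.78 in T790M tumours and another of -2.22 and -1.68, with differences of -0.09 and -0.54. None of the 7 was called in the difference of effects. At an unadjusted p under 0.05, the lower member was the receptor Erbb4, at -0.20 ± 0.09 (adjusted p = 0.284). Erbb2 and Erbb3, the partner receptors, rose in both types by 0.58 to 1.19, with differences of -0.06 and -0.01. Whether these probe sets also detect the transgene was not tested. Outside the list, Nrg4, an ERBB4 ligand, was called higher at 0.65 ± 0.12 (adjusted p = 0.018), though not with the median over its probe sets.

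Genes of proliferation were not called. Of 22 mitosis genes limma called none, and none had an unadjusted p under 0.05; the median effects were 1.13 in L858R and 1.23 in T790M tumours. Of 22 DNA replication genes none was called and 2 were lower at an unadjusted p under 0.05, with a median difference of -0.35. Genes of ERK feedback and output, which report pathway activity, rose by medians of 0.59 and 0.68, with 0 of 17 called and 2 lower at an unadjusted p under 0.05. Hypoxia genes had a median difference of 0.27 with 0 of 13 called and 3 higher at an unadjusted p under 0.05. Interferon-stimulated genes lay below 0 in 13 of 14 cases, with a median of -0.59 and none called or at an unadjusted p under 0.05. A p that misses the threshold does not show that these genes changed alike.

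Of 14 circadian clock genes, 5 lay above 0 and 9 below, and none was called by its brightest probe set. At an unadjusted p under 0.05 there were 3 higher, the activators Arntl (1.38 ± 0.49), Npas2 (1.67 ± 0.65) and Clock (0.72 ± 0.25), and 7 lower. Among the lower, the output regulator Dbp had -2.63 ± 0.92 and the repressor Nr1d1 -1.46 ± 0.43 (limma adjusted p = 0.124 for Nr1d1). The repressors Per1 and Cry1 lay above 0, at 0.46 and 0.56, whereas Per2, Per3 and Cry2 lay below it, at -0.59, -1.05 and -0.55. With every probe set tested on its own, 1 dimmer probe set each of Clock (0.64, limma adjusted p = 0.0117) and Tef (-0.98, adjusted p = 0.00666) was called. Nr1d1 also differed between the normals, higher by 1.69 in mixed-strain lungs (adjusted p = 0.00846), and by 0.23 between the tumours (adjusted p = 0.704). Over all 38 gene lists, 5 of 499 measured genes were called (1.0%, against 0.418% of all genes): Krt79, Cdkn1a, Apoe, Asns and Hpse. The lists were chosen with earlier results of these data known, so the larger share is no independent support.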

How the data were processed

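The authors deposited log2 expression values produced by RMA, as stated per the submitters' processing notes (version, background step and annotation not given in the sources used here), for 45101 probe sets with 2 decimals. Arrays have no read depth; their number limits the precision. After leaving out 64 control probe sets, 34945 had 1 gene symbol, 932 several and 9160 none; 34741 symbols were updated through Entrez identifiers. For each of 18193 genes the brightest probe set on average was used. The means of 5 groups were fitted to all 24 arrays with limma 3.58.1 in R 4.3.3 (lmFit, eBayes with trend, 19 residual degrees of freedom), with two-sided tests and Benjamini-Hochberg adjustment across all genes. The procedure was tested on simulated data.

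Named genes are the 12 highest and 12 lowest called differences, passing over clone names, plus called members of 38 gene lists (508 of 545 entries measured). Members and lists were chosen with earlier results of these data known, and 2 lists were added after the called genes were seen. Lists are described by counts and medians. The 3' minus 5' difference of the Gapdh control probe sets was compared by exact two-sided permutation tests: L858R and T790M tumours differed by 0.03 (p = 0.571), and mixed-strain and FVB normals by -0.11 (p = 0.00794, 0.0635 adjusted over 8 tests). In the same permutation tests, L858R tumours differed from their normals by 0.11 (p = 0.0476, adjusted p = 0.1905) and T790M tumours from theirs by -0.03 (p = 0.365). For Actb, these permutation tests gave p from 0.159 to 0.254. Scores of sex-linked genes were high in 2 arrays of each of the 4 groups. Same-numbered arrays were checked for pairing. Promoters are from RefSeq, GRCm38.p6. Alternatives were centring, quantile normalization, other probe set rules, a filter on dim genes, array weights, no trend, other sets of arrays, a replicate block, a sex score, other thresholds and leaving out each array.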

Additional observations from a re-analysis of the deposited data

Results flagged for a closer look

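The differences between the 2 tumour effects were themselves tested, and 76 genes passed. Named among them were, on the higher side and on the log2 scale, Krt79 at 3.19, Wfdc21 at 3.04, Cd200r4 at 3.01, Ms4a8a at 2.58, Acot1 at 2.34, Rab3c at 2.23, Vstm2a at 2.09, Slc15a2 at 1.90, Lipf at 1.80, Eya1 at 1.57, Ltc4s at 1.53, Rab27b at 1.44 and Cdkn1a at 1.22. On the lower side were Ddc at -3.92, Pcdh18 at -1.46, Apoe at -1.46, Sdc2 at -1.34, Asns at -1.29, Zfp874a at -1.29, Dact1 at -1.23, Hpse at -1.22, Sorbs2 at -1.20, Evc at -1.08, Spats2l at -1.03 and Fam114a1 at -1.03.

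Of 100 sets of group values examined for a sample far from the others, 3 held one, where chance gives about 1 in 20. Ms4a8a was lowest in T790M tumour 1, at 5.40. Sorbs2 was lowest in L858R tumour 4, at 7.13, and its call was lost without that array. Spats2l was lowest in T790M tumour 4, at 6.95.

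L858R+T790M tumours, which the contrast does not use, were above the FVB normals by 1.22 for Rab3c and by 1.09 for Cdkn1a.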

How the results depend on the processing

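The number of genes called in the difference of effects, 76, became 182 with every probe set tested on its own, 316 with array weights, 179 with only the 4 groups of the contrast (75 of the 76 among them), 124 with a sex score, 34 when 2-fold was also required and 2 at an adjusted p under 0.01. With all normals as 1 group it was 894, and for the tumours directly 1083, with 51 and 59 of the 76 called. These 2 settings give the same differences and vary only in the estimated spread. Centring each array gave 82 with 52 higher and 30 lower, against 37 and 39, as it moved the median of all genes from 0.02 to 0.06. Leaving out each array gave 50 to 178 genes (most without L858R+T790M tumour 2, fewest without FVB normal 2), with 43 to 76 of the 76 among them. Of the 76, 38 kept the call whichever array was left out, as did 16 of the 25 named by the rule.

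For the L858R effect, 7523 genes became 14043 over single probe sets and 1966 at 2-fold, and 6735 to 7948 without single arrays. For the T790M effect, 7238 became 13275 and 1533, and 6514 to 7417 without single arrays. Between the normals, 189 became 102 with centring, 125 with quantile normalization, 795 over single probe sets, 123 without dim genes, 3332 with array weights, 23 at an adjusted p under 0.01 and 14 at 2-fold, and 35 to 297 without single arrays. The direct tumour count of 1083 became 2358 over single probe sets, 474 with array weights, 213 at the stricter threshold and 137 at 2-fold, and 484 to 1345 without single arrays. Where a cause is not given, the cause was not tested.

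Deviations of same-numbered arrays from their group means had correlations from -0.28 to 0.43 over 27 pairs, of which 5 exceeded 0.1. The highest was between L858R tumour 1 and T790M tumour 1. Differently numbered arrays were not compared, so the check cannot decide whether the numbers pair the samples. With the replicate block, 65 genes were called, 59 of them among the 76, and 115 rather than 189 between the normals. Wfdc21, Acot1, Apoe, Hpse, Mfsd10 and Slc35e4 were the genes of the text that lost the call. Among the genes of the text, array weights ended the calls of Cd200r4 and Ltc4s.

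Other probe sets of 7 called genes had the opposite sign, none called: Ddc 0.10, Sorbs2 0.21, Ackr4 0.0205, Cacfd1 0.11, Ccdc83 -0.0185, Ext2 0.11 and Peak1 0.17. Zfp874a turned to 0.0375 with all normals as 1 group and in the direct difference, which are the same estimate. Of 907 other values of the 76 genes, 733 kept sign and call and 165 lost the call.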

Other observations

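The 10092 probe sets that name no gene or more than 1, tested apart with the same limma model, gave 9 calls in the difference of effects (0.0892%), 4 higher and 5 lower, from -2.64 to 1.01.

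The calls closest to the threshold were Ltc4s, Slc35e4 and Tmem119, with limma adjusted p of 0.0443, 0.0446 and 0.0446 and differences of 1.53, 0.52 and -0.92. Just outside were Zfp346, Lrrn3 and Slit2, with 0.0506, 0.0506 and 0.0519 and differences of -0.68, -1.31 and -1.14.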
